A study of Mus musculus with 8 samples.

Results

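The genes described here are 35 listed members of glycolysis and of the transcriptional response to low oxygen, with solute carriers left out. A gene was chosen by its symbol: it entered when a probe set, a group of probes on the array for a transcript, carried that symbol alone in the platform annotation. This held for 29 of the 35 members, among 12393 genes measured in all. Gapdh and Bnip3l had probe sets that the annotation gives to several genes, or control probe sets, and Gpi1, Eno1, Pfkfb4 and Ankrd37 are not analysed here.

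The samples were RNA from stable mouse T cell lymphoma lines deficient in Snf5, which belongs to the SWI/SNF machinery that moves nucleosomes, so both groups share that deficiency. Cells had been purified by surface level of CD44, a receptor for hyaluronan that is high on memory T cells. The CD44hi and the CD44lo subpopulation each had 4 biotin-labelled arrays numbered 1 to 4 (Affymetrix Mouse 430A 2.0). The labels do not give the number of lines, the age or strain of the mice or what the replicate numbers stand for, so each p-value reflects how far these arrays scatter, and that scatter could be technical. Array medians lay between 320.3 and 339.1 on the intensity scale, and precision is limited by how few arrays there are. Of 10 listed T cell markers 9 were measured. Cd3d, Cd3e, Cd3g, Cd8a, Cd8b1, Zap70 and Lat lay between 11.60 and 14.21 on the log2 scale on every array, whereas Cd5 (4.15 to 4.48) lay near the bacterial control probe sets (array medians 4.27 to 4.55) and Cd2 lay at 5.49 to 6.10. Arrays numbered 1 and 3 resembled each other in both subpopulations, apart from arrays numbered 2 and 4. These pairs of numbers were seen over all genes of these data, no label names them, and differences between them are therefore given as values without a test.

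Glycolysis splits glucose to pyruvate in a fixed order of enzymes, from hexokinase to pyruvate kinase, and lactate dehydrogenase turns pyruvate to lactate. When oxygen falls, the prolyl hydroxylases of the Egln family stop marking HIF-1alpha (gene Hif1a) for destruction, and HIF-1 then binds a short DNA motif and raises the transcription of many glycolytic enzymes and of genes such as Vegfa, Adm and Bnip3. Activated T cells and lymphomas also run glycolysis in the presence of oxygen. HIF-1alpha is controlled mainly at the level of the protein, which arrays do not measure.

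The promoters of 4 members that differ in their pattern across the arrays are shown first. Each window is 300 bases long, most of them upstream of the transcript start (RefSeq, build GRCm38.p6), and is written 5′ to 3′ on the gene's strand, and capitals mark the core of the HIF binding motif, ACGTG or GCGTG, which read CACGT and CACGC where they lie on the opposite strand. Adm (chr7:110627407-110627706, plus strand) and P4ha1 (chr10:59323046-59323345, plus strand) were low on arrays 1 and 3, Bnip3 (chr7:138909457-138909756, minus strand) was low on arrays 1 and 3 of CD44hi alone, and Txnip (chr3:96557707-96558006, plus strand) was high on arrays 1 and 3.
Adm: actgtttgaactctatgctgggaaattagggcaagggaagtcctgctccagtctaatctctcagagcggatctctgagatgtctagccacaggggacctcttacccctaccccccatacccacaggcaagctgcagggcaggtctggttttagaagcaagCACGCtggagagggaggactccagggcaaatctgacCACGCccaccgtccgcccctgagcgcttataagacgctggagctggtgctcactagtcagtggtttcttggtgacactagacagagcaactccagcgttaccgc
P4ha1: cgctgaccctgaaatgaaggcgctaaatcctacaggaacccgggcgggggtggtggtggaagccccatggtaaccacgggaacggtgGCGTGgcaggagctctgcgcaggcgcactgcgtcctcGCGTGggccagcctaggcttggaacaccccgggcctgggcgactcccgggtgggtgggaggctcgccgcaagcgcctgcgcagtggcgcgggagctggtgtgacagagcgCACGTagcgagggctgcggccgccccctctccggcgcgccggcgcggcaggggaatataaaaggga
Bnip3: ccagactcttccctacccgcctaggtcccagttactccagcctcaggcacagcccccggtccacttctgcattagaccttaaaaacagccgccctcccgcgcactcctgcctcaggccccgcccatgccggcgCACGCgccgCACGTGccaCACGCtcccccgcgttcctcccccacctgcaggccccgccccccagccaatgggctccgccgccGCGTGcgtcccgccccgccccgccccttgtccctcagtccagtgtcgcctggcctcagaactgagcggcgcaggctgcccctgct
Txnip: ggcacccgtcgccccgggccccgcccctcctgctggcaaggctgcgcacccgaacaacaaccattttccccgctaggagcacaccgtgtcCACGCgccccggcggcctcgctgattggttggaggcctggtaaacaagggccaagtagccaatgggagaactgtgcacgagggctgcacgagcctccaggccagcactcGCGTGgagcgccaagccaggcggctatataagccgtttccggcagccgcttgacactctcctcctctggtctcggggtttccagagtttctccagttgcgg

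The Adm and Txnip windows held GCGTG at 2 places each, on the written or the opposite strand, and no ACGTG. The P4ha1 window held 1 ACGTG and 2 GCGTG. The Bnip3 window held 3 GCGTG and a CACGTG, which reads ACGTG on both strands and so counted as 2 matches of ACGTG. Of 29 measured members 28 matched a window by symbol. A gene with several transcript starts, such as Aldoa, Pkm or Vegfa, was represented by the first one listed, so motifs at its other starts were not counted. Of these 28 windows 21 (75%) held ACGTG or GCGTG, against 43.8% of 27025 windows of all genes. The median GC content was 65% in the members' windows and 52.7% over all, and both motifs are rich in G and C. Among the 12 members with a window that were lower on arrays 1 and 3 without overlap (below), 7 windows (58.3%) held either motif, and among the 16 others 14 (87.5%) did. CACGTG alone was in 4 of the 28 windows (14.3%) and in 7.24% of all. A match is a run of letters and does not show binding.

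The first comparison asks which of these genes differ between CD44hi and CD44lo cells. None of the 29 members passed the test in either direction (limma, Benjamini-Hochberg adjusted over all genes, adjusted p under 0.05), where 3.81% of all genes did (2.03% higher and 1.78% lower in CD44hi). At an unadjusted limma p under 0.05 there were 2 members, Hk2 and Fgf11, against 1563 of all 12393 genes. The median difference, CD44hi minus CD44lo, was -0.06 on the log2 scale over the members and -0.000059 over all genes. Of the 29 differences 21 were negative, against 6198 of 12393 over all genes. The groups did not overlap for Hk2 and Fgf11 alone, both lower in CD44hi, against 10.3% of all genes without overlap in either direction. With the replicate number as a block, which removes what same-numbered arrays share, 3 members fell in CD44hi and 0 rose, against 6.19% of all genes in either direction, 3.11% lower and 3.08% higher. The 3 were Hk2, Fgf11 and Adm. The block treats same-numbered arrays as pairs, which the labels do not state, so its p-values hold only if they are. With arrays weighted by how well they fitted, 5 members were called lower (Hk2, Fgf11, Ndrg1, Bnip3 and Aldoc) and 0 higher, against 3.37% and 3.25% of all genes. The weighted fit has no term for the numbers, so unequal weights can carry differences between the numbers into it. Its Adm difference was -0.77, against -0.39 on arrays 1 and 3 and -0.35 on arrays 2 and 4. Since bulk RNA was measured, fewer cells with a transcript and less transcript per cell cannot be told apart.

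Of 13 measured glycolytic enzymes 0 passed without the block, and their differences ran from -0.45 (Hk2) to 0.21 (Pfkl) with a median of -0.03. Aldoa (aldolase A), Tpi1, Pgk1, Pgam1, Eno2, Pkm (pyruvate kinase of muscle and dividing cells) and Ldha (the lactate dehydrogenase A subunit) differed by between -0.05 and 0.07. Aldoc differed by -0.29 over all arrays, and by -0.73 on arrays 1 and 3 against 0.15 on arrays 2 and 4. For Pfkl these differences were -0.07 and 0.49. The 95% interval of the difference was -0.21 to 0.11 for Ldha, -0.17 to 0.15 for Pgam1, -0.13 to 0.26 for Pkm and -0.21 to 0.25 for Tpi1. It was wider for Eno2 (-0.55 to 0.54) and Pfkp (-0.55 to 0.44), whose values spread with the replicate numbers.

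Hk2, the inducible hexokinase that traps glucose in the cell, was the enzyme with the clearest difference. CD44hi arrays 1 to 4 read 10.81, 11.00, 10.86 and 11.05 on the log2 scale, and CD44lo arrays 1 to 4 read 11.20, 11.63, 11.21 and 11.50. All CD44hi arrays were thus below all CD44lo arrays, and at each replicate number CD44hi was the lower. The difference of -0.45 (SE 0.12, 1.37-fold; exact two-sided permutation p = 0.0286, the smallest that 70 assignments allow) missed the limma threshold (adjusted p = 0.0799) and passed with the replicate block (SE 0.08, limma adjusted p = 0.0182). The permutation, here and below, moved arrays freely between the groups and took no account of the replicate numbers, along which the arrays resembled each other. Hk1, the hexokinase of most tissues, did not pass with or without the block. Its 4 CD44hi arrays averaged 9.75 ± 0.15 (SD) and its 4 CD44lo arrays 9.82 ± 0.09.

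Fgf11, an intracellular member of the fibroblast growth factor family that is induced by hypoxia, had the largest difference of all members. In CD44hi the log2 values were 5.35, 6.76, 5.46 and 7.88 for arrays 1 to 4, and in CD44lo 7.94, 10.14, 8.31 and 10.20. CD44hi was lower at every number, but CD44hi array 4 came close to CD44lo array 1, and both subpopulations also differed between the numbers. The log2 difference was -2.79 (SE 0.69, 6.89-fold; exact two-sided permutation p = 0.0286, limma adjusted p = 0.0708), and with the block it passed (SE 0.17, limma adjusted p = 0.000316). Without CD44hi replicate 4 it passed too, with a difference of -3.29. The other Fgf11 probe set differed by 0.04 and so did not show the difference. It lay at 4.76 to 5.09 on all arrays, near the bacterial control medians (4.27 to 4.55). At so low a signal it says little about the difference. The mean of both probe sets differed by -1.37.

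Adm codes for adrenomedullin, a secreted peptide that widens vessels and is among the transcripts most strongly induced by hypoxia. The 4 CD44hi values were 6.39, 8.85, 6.24 and 8.23, and the 4 CD44lo values 6.80, 9.08, 6.61 and 8.71. The groups overlapped widely, yet at each number CD44hi was lower by a small margin. The difference of -0.37 (SE 0.75, limma adjusted p = 0.93) had an interval of -2.08 to 1.33, and with the block its SE was 0.07 and it passed (limma adjusted p = 0.0342).

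Oxygen sensing genes did not pass with or without the block. Hif1a itself averaged 11.44 ± 0.24 (SD) over the 4 CD44hi arrays and 11.43 ± 0.15 over the 4 CD44lo arrays, with an interval of the difference from -0.28 to 0.32. Egln1, the main oxygen-sensing hydroxylase, was at 12.36 ± 0.16 and 12.47 ± 0.09. Egln3, a hydroxylase that is itself induced by hypoxia, read 6.02, 5.44, 6.08 and 5.53 in CD44hi and 5.44, 5.02, 5.66 and 5.61 in CD44lo. These Egln3 values overlap and are low, and the difference was 0.34 (SE 0.19, limma adjusted p = 0.576). Car9, a cell-surface carbonic anhydrase often used as a hypoxia marker, and P4ha2, a collagen prolyl hydroxylase subunit, lay at 4.15 to 4.47 and 4.11 to 4.48, among the bacterial control medians (4.27 to 4.55), so these probe sets showed no signal above background in either group.

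**Figure D1:**
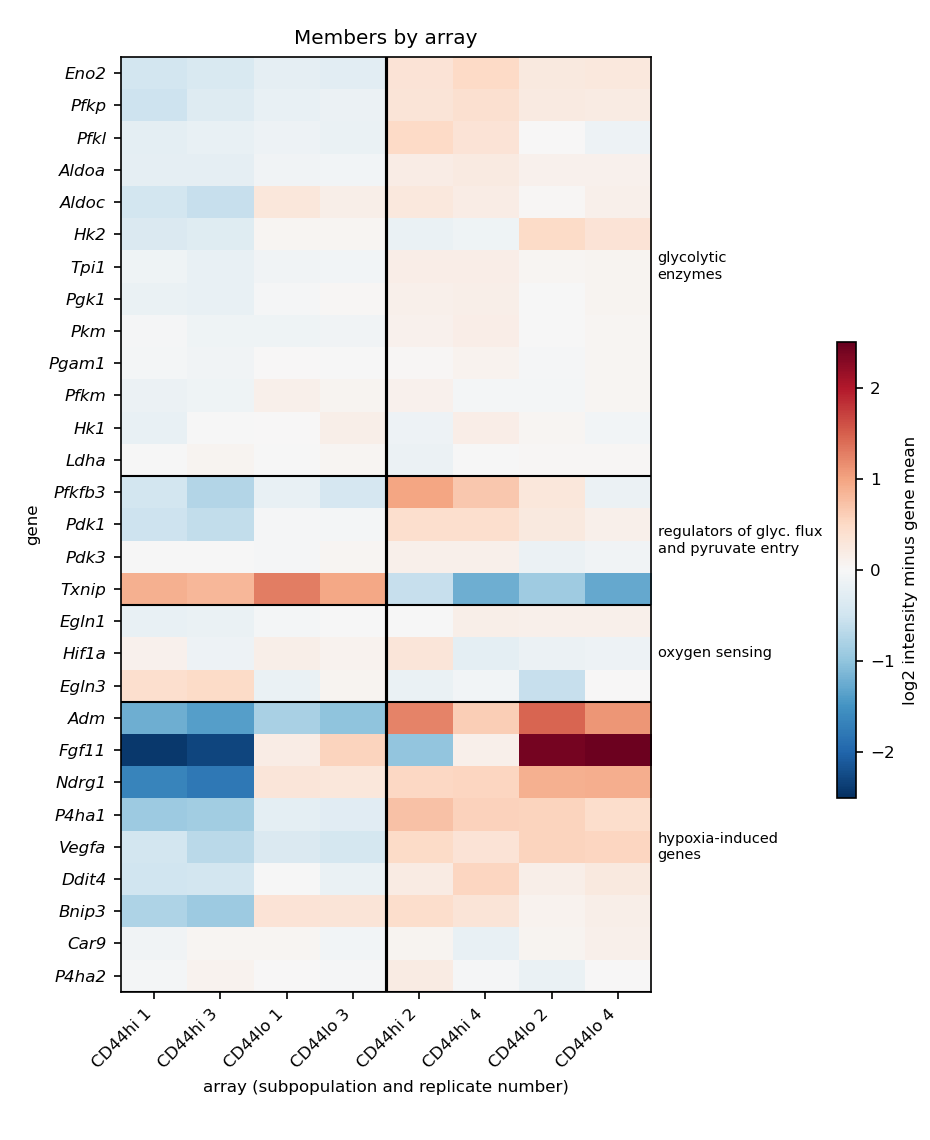
Log2 intensity of the 29 measured members (rows, grouped by role) on the 8 arrays (columns), with each gene's mean over the arrays taken off; blue is below and red above that mean. The line parts arrays numbered 1 and 3 (left) from 2 and 4 (right): Txnip is red on the left, Adm and Vegfa blue on the left in both subpopulations, and Ndrg1 and Bnip3 blue in CD44hi arrays 1 and 3 alone.

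Many of these genes also differed along the replicate numbers. For 14 of the 29 members (48.3%) the 4 arrays numbered 1 and 3 lay all above or all below the 4 arrays numbered 2 and 4, against 25.4% of all genes. Of these, 13 were lower on arrays 1 and 3 (44.8%, against 13.1% of all genes) and 1, Txnip, was higher (12.3% of all genes). Differences of at least 2-fold without overlap were found for 4 members, Adm, Ndrg1, P4ha1 and Txnip, where 1.23% of all genes had such a difference. The median difference, numbers 1 and 3 minus 2 and 4, was -0.28 over the members and -0.01 over all genes. The pairs were taken from these arrays, so these shares describe the arrays and are no test.

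Among hypoxia-induced genes, Adm differed most between the numbers, with values of 6.24 to 6.80 on arrays 1 and 3 and 8.23 to 9.08 on arrays 2 and 4. The difference was -2.21, or 4.62-fold, and nearly the same in CD44hi (-2.23) and CD44lo (-2.19). Fgf11 differed by -1.91 in CD44hi and -2.05 in CD44lo, although its values overlapped across the subpopulations. Vegfa codes for the growth factor that drives vessel formation. It read 8.50 and 8.28 on CD44hi arrays 1 and 3 and 9.44 and 9.30 on arrays 2 and 4. CD44lo gave 8.60 and 8.52 against 9.52 and 9.50. The Vegfa difference of -0.96 (1.95-fold) was thus about as large in CD44hi (-0.98) as in CD44lo (-0.94), and its other probe set differed by -0.87. Ddit4, an inhibitor of mTOR signalling induced by stress and low oxygen, differed by -0.56 without overlap.

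Txnip went the other way. It codes for thioredoxin-interacting protein, which binds thioredoxin and lowers glucose uptake, and its transcript is raised by glucose metabolites. CD44hi arrays 1 and 3 read 10.52 and 10.45, and arrays 2 and 4 read 9.06 and 8.39. CD44lo arrays 1 and 3 read 10.91 and 10.59, and arrays 2 and 4 read 8.73 and 8.34. Arrays numbered 1 and 3 were all higher, by 1.99 on average (3.96-fold), by 1.76 in CD44hi and 2.21 in CD44lo. The other Txnip probe set differed by 1.03 in the same direction, without overlap. Between CD44hi and CD44lo the difference was -0.04, with an interval from -1.59 to 1.51 and a block SE of 0.12.

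The glycolytic enzymes differed less. Arrays 1 and 3 were lower without overlap for 6 of 13, where 13.1% of all genes were: Eno2 (-0.67), a neuronal enolase that hypoxia also induces, Pfkp (-0.58) and Pfkl (-0.37), subunits of phosphofructokinase, Aldoa (-0.30), Tpi1 (-0.23) and Pkm (-0.16). The 4 probe sets of Aldoa differed by -0.34 to -0.28 and the 3 of Tpi1 by -0.25 to -0.22. The second Pfkl probe set differed by -0.40 without overlap, but the second Pfkp probe set by -0.16 with overlap. Ldha (0.05) was the 1 enzyme with a positive difference, and Hk1, Pfkm and Pgam1 differed by -0.07 to -0.02. Aldoc, Hk2 and Pgk1 differed by -0.30 to -0.18 with overlap. Gapdh is known here through control probe sets alone: the middle one read 14.24 to 14.31 on arrays 1 and 3 and 14.33 to 14.38 on arrays 2 and 4. The other Gapdh control probe sets overlapped between the numbers. The one at the 3′ end read 14.50 to 14.55 on arrays 1 and 3 and 14.53 to 14.63 on arrays 2 and 4. The one at the 5′ end read 13.67 to 13.83 and 13.75 to 13.90. Of the regulators, Pfkfb3, which makes the activator of phosphofructokinase, differed by -0.90 without overlap. Pdk1, a kinase that inhibits pyruvate dehydrogenase, differed by -0.61, also without overlap. The second Pfkfb3 probe set differed by -0.18, so the size for this gene depends on the probe set. Pdk3, a related kinase, was lower on arrays 1 and 3 in CD44hi (-0.14) and higher in CD44lo (0.13), which gave a mean of -0.0019.

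Hif1a transcripts did not follow this pattern: arrays 1 and 3 read 11.31 to 11.58 and arrays 2 and 4 11.20 to 11.73, which overlap. Egln1 differed by -0.19 and Egln3 by 0.40, both with overlap. Of 17 members with several probe sets, the sign of the difference between the numbers was the same in all probe sets for 14, and Hk1, Hif1a and Egln1 were the exceptions.

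**Figure D2:**
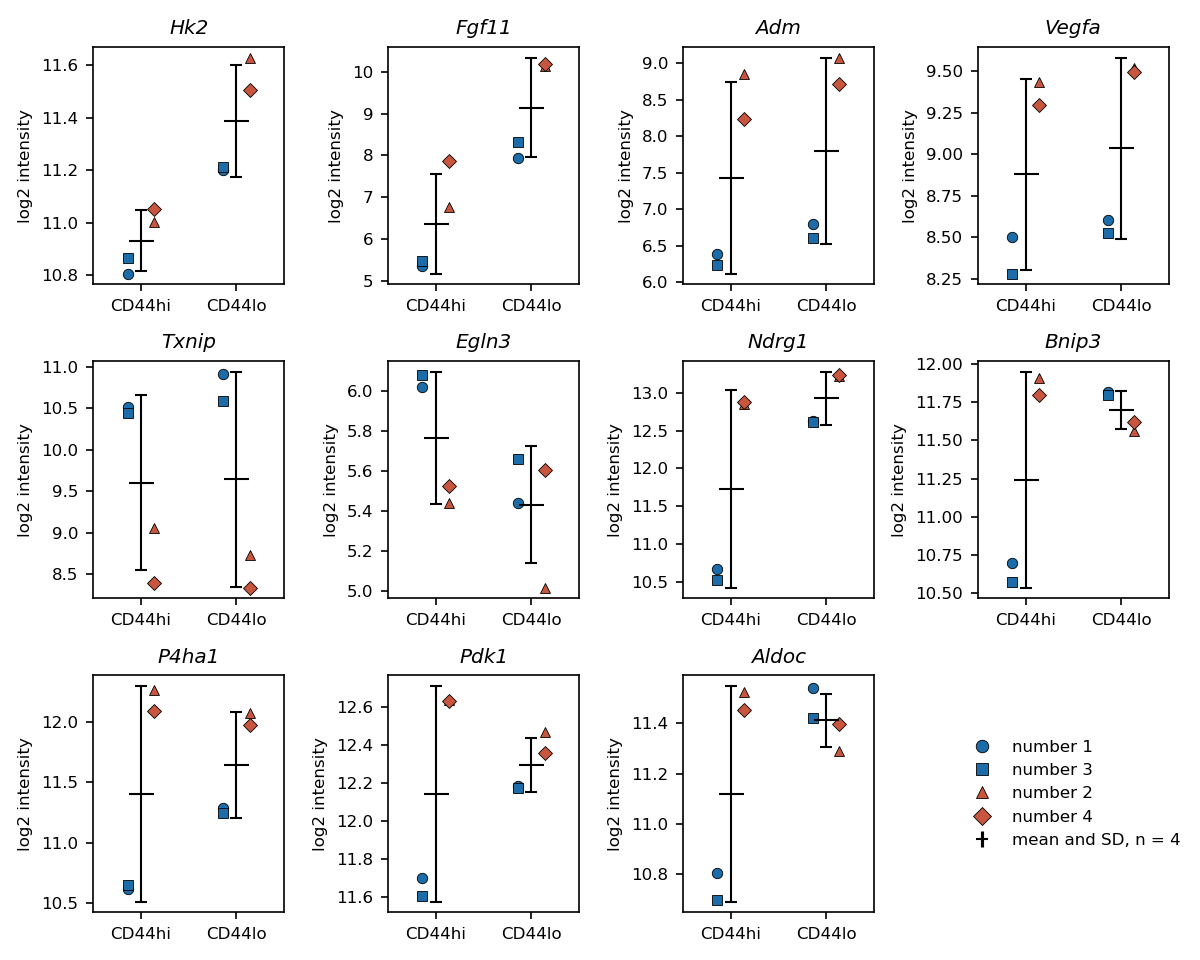
Log2 intensity of 11 members on each array, by subpopulation, with number 1 as circles, 3 as squares, 2 as triangles and 4 as diamonds; bars give the mean and SD of 4 arrays. Hk2 and Fgf11 are lower in CD44hi, Adm, Vegfa and Txnip separate by number in both subpopulations, and the CD44hi values of Ndrg1 (10.53 and 10.68), Bnip3, P4ha1, Pdk1 and Aldoc on arrays 1 and 3 lie below all other arrays.

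The subpopulation difference was unequal between the pairs of numbers for several members. The pairs were formed because these arrays resembled each other, so the spread within a pair is small by selection, the adjusted p-values of the interaction fit are too small, and its calls describe these arrays. A limma fit with the interaction of subpopulation and pair of numbers called Ndrg1, Bnip3, Aldoc, Pdk1 and P4ha1 (adjusted p under 0.05), or 17.2% of the members against 1.52% of all genes. All 5 interactions were negative, as were 0.758% over all genes: CD44hi was lower than CD44lo on arrays 1 and 3, and by less or not at all on arrays 2 and 4. Aldoc and Pdk1 fall outside the naming rule and were singled out with their values known. The error of that fit is the spread between arrays 1 and 3, and between 2 and 4, of a subpopulation. If those arrays repeat a single preparation, it is a technical spread.

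Ndrg1, a stress-induced gene of differentiation and a common marker of hypoxia, showed this most. The CD44hi values were 10.68 and 10.53 on arrays 1 and 3 and 12.84 and 12.87 on arrays 2 and 4. The CD44lo values were 12.62 and 12.62 on arrays 1 and 3 and 13.22 and 13.24 on arrays 2 and 4. Only CD44hi arrays 1 and 3 were set far apart. The subpopulation difference was -2.02 on arrays 1 and 3 and -0.37 on arrays 2 and 4, an interaction of -1.65 (SE 0.11, limma adjusted p = 0.0024). All 5 Ndrg1 probe sets differed in the same direction between the numbers, by -1.64 to -1.14. Over all 8 arrays the Ndrg1 difference of -1.19 (SE 0.56) did not pass, with or without the block (limma adjusted p = 0.436 and 0.101).

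Bnip3, a mitochondrial protein that promotes mitophagy and cell death in hypoxia, read 10.70 and 10.57 on CD44hi arrays 1 and 3 and 11.91 and 11.80 on arrays 2 and 4. In CD44lo the readings were 11.82 and 11.79 against 11.56 and 11.62. CD44hi was therefore lower by 1.17 on arrays 1 and 3 and higher by 0.26 on arrays 2 and 4 (interaction -1.43, SE 0.12, limma adjusted p = 0.0056). For P4ha1, the catalytic subunit of collagen prolyl hydroxylase, CD44hi arrays read 10.62, 12.26, 10.65 and 12.09 for numbers 1 to 4 and CD44lo arrays 11.29, 12.08, 11.24 and 11.97. Both subpopulations were lower on arrays 1 and 3, CD44hi by 1.54 and CD44lo by 0.76 (interaction -0.78, SE 0.13, limma adjusted p = 0.0381).

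Pdk1 read 11.70 and 11.61 on CD44hi arrays 1 and 3 and 12.64 and 12.63 on arrays 2 and 4, with CD44lo at 12.19, 12.47, 12.17 and 12.36 for numbers 1 to 4 (interaction -0.75, SE 0.11, limma adjusted p = 0.0355). Aldoc, an aldolase of brain that hypoxia induces elsewhere, read 10.81, 11.52, 10.70 and 11.45 in CD44hi and 11.54, 11.29, 11.42 and 11.40 in CD44lo (interaction -0.88, SE 0.13, limma adjusted p = 0.0302). Again the low values were those of CD44hi arrays 1 and 3. The other Aldoc probe set differed between the subpopulations by -0.59 on arrays 1 and 3 and by -0.01 on arrays 2 and 4. The Aldoc interaction was not called with the mean of both probe sets (limma adjusted p = 0.0979). With the more variable probe set it was not called either (limma adjusted p = 0.513). Of the 29 members 24 had a negative interaction, against 6154 of all 12393 genes. The members' median subpopulation difference was -0.17 on arrays 1 and 3 and 0.11 on arrays 2 and 4. Over all genes these medians were 0.0046 and -0.00055.

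These calls rest on few arrays. Ndrg1 was called whichever array was left out. Bnip3 was called in each case but without CD44lo replicate 2 (limma adjusted p = 0.0531), which left Ndrg1 as the 1 call. Without CD44hi replicate 1 or 3, or CD44lo replicate 1, 3 or 4, the calls were Ndrg1 and Bnip3. The share of all genes called fell to between 0.0726% and 0.137% in those 6 fits. All 5 members were called without CD44hi replicate 2 (2.25% of all genes), and 6, with Pfkl added, without CD44hi replicate 4 (3.22%). The fits within a pair of numbers have the same limit and restate the pattern from which the pairs were formed. On arrays 1 and 3 alone 7 members were called lower in CD44hi (the 5 with an interaction, Hk2 and Fgf11) and 0 as higher, against 3.63% and 3.41% of all genes. On arrays 2 and 4 alone 1 was called lower, Fgf11, and 0 as higher, against 2.15% and 2.47%.

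**Figure D3:**
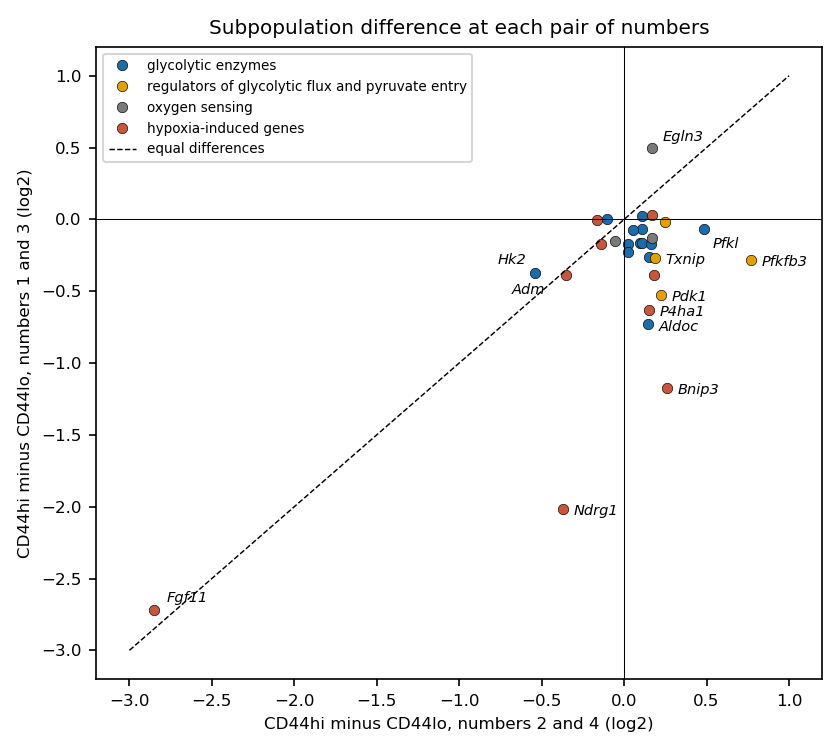
Difference CD44hi minus CD44lo on the log2 scale for 29 members on arrays 2 and 4 (horizontal) and on arrays 1 and 3 (vertical); the dashed line marks equal differences. Fgf11, Hk2 and Adm lie near the line, and Ndrg1, Bnip3, Aldoc, P4ha1 and Pdk1 lie well below it.

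Further genes of these pathways were taken from lists chosen by function. Of 26 further hypoxia-induced genes 13 were lower on arrays 1 and 3 without overlap (50%, against 13.1% of all genes) and 1, Lox, was higher. Those with at least a 2-fold difference without overlap were Cxcr4 (-1.52), the receptor of the chemokine CXCL12, Kdm4b (-1.18), a histone demethylase, and Gbe1 (-1.09), the glycogen branching enzyme. Kdm3a, another histone demethylase, and Ak4, a mitochondrial adenylate kinase, were also called in the interaction fit (-0.65 and -0.69, limma adjusted p = 0.0432 and 0.0424). Between CD44hi and CD44lo 1 gene of this list rose, Tmem45a, from 7.65 to 9.67 (log2 difference 2.02, SE 0.38, limma adjusted p = 0.0195), and 0 fell. With the block 5 of the 26 rose and 2 fell, where 3.08% and 3.11% of all genes did. Cxcr4 was at 10.35 in CD44hi and 9.29 in CD44lo and passed as higher with the block (limma adjusted p = 0.0258; 0.518 without it).

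Of 18 further glycolysis, branch and pyruvate genes 1 rose in CD44hi and 0 fell. This was Ldhb, the lactate dehydrogenase subunit of oxidative tissues, which rose from 6.72 to 8.86 (log2 difference 2.14, SE 0.20, limma adjusted p = 0.00032) and was higher on arrays 1 and 3 (by 1.70) and on arrays 2 and 4 (by 2.58). Ldha differed by -0.05, as given above. Eno3, the muscle enolase, differed by -0.37 without passing. In this list of 18, 1 gene was lower and 2 were higher on arrays 1 and 3 without overlap, near or below the 13.1% and 12.3% of all genes. Of 7 pentose phosphate genes, which make NADPH and ribose from glucose 6-phosphate, 0 passed between the subpopulations; Pgd and Rpe had the largest differences, -0.12 and 0.12. Here 4 were higher and 0 lower on arrays 1 and 3 without overlap (12.3% and 13.1% of all genes), namely Pgd by 0.62, Tkt by 0.39, Taldo1 by 0.29 and Rpia by 0.18. The median difference between the numbers was 0.24 over these 7 genes, -0.23 over the 13 member enzymes of glycolysis and 0.02 over the 18 further glycolysis, branch and pyruvate genes, of which 9 were negative.

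Of 13 regulators of HIF 1 fell in CD44hi and 0 rose. Siah2, a ubiquitin ligase that targets the Egln hydroxylases, fell from 9.07 to 8.32 (log2 difference -0.75, SE 0.08, limma adjusted p = 0.00087). With the block Egln2, a further hydroxylase, passed as higher (log2 difference 0.36, limma adjusted p = 0.0323). Epas1, which codes for HIF-2alpha, was at 8.15 and 7.75 without passing. Of these 13 regulators 5 were lower on arrays 1 and 3 without overlap (38.5%, against 13.1% of all genes). Another 1 was higher, against 12.3% of all genes, and the median difference between the numbers was 0.0025. Of 6 genes around Txnip, Mlxipl, a glucose-sensing transcription factor of liver, was at 4.72 in CD44hi and 5.63 in CD44lo and passed as lower (limma adjusted p = 0.0373; 0.0691 with the block), near background in CD44hi. Arrdc4, which like Txnip is a target of the glucose sensor MondoA (gene Mlxip), did not go with Txnip between the numbers: it differed by -0.78, and Txnip by 1.99. Txnrd1 and Txn1, thioredoxin reductase and thioredoxin, differed by 0.96 and 0.29 in the direction of Txnip, without overlap.

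**Figure D4:**
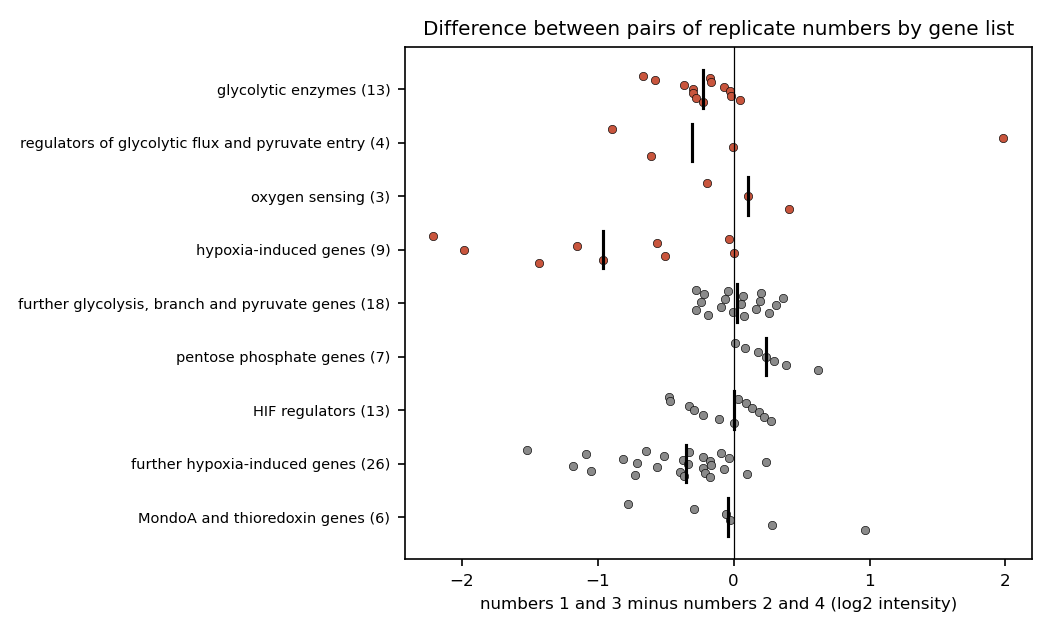
Difference between arrays numbered 1 and 3 and arrays numbered 2 and 4 (log2 intensity) for each measured gene, by role of the members (red) and by further list (grey), with black bars at the medians and the number of genes in brackets. Hypoxia-induced members and the further hypoxia list lie mostly below 0 (medians -0.96 and -0.35), and pentose phosphate genes above it (0.24).

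Signs of RNA quality and markers of other cells moved in part with the same arrays. The Actb control probe set at the 3′ end exceeded the 5′ one by a log2 ratio of 0.380 to 0.532 on arrays 1 and 3 and 0.558 to 0.795 on arrays 2 and 4. The same ratio for Gapdh was 0.760 to 0.877 in CD44hi and 0.650 to 0.730 in CD44lo, and overlapped between the numbers. The summed intensity of 6 macrophage and monocyte markers was 406.8 to 451.8 on arrays 1 and 3 and 1000.2 to 1404 on arrays 2 and 4. Of these 6, Cd68 alone separated (8.01 to 8.23 against 9.75 to 10.29), while Csf1r, Itgam, Lyz2, Adgre1 and Cd14 lay between 4.15 and 5.73 on every array. The sums of the other lists overlapped between the numbers: 176.0 to 220.9 over 6 B cell markers, 359.8 to 449.6 over 6 dendritic cell markers, 289.9 to 415.1 over 5 erythroid markers and 702.0 to 1686 over 8 fibroblast and endothelial markers. Between the subpopulations, the sums of B cell (187.1 to 220.9 in CD44hi, 176.0 to 180.8 in CD44lo), dendritic cell (439.7 to 449.6 and 359.8 to 404.5) and fibroblast and endothelial markers (1082 to 1686 and 702.0 to 920.7) did not overlap. In the last list 1 of 8 genes passed, Pecam1, which rose by 0.99 in CD44hi (limma adjusted p = 0.0212), while the other 7 lay between 4.01 and 6.81. Of the dendritic cell markers, H2-Ab1 and Cd74 were called in the interaction fit, with -1.40 and 0.98 (limma adjusted p = 0.0113 and 0.0288). The part of RNA quality and of these markers in the results was not tested.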

How the data were processed

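Per the labels' protocols, the authors preprocessed the array scans with Robust Multichip Average (RMA), and the deposited values are probe set intensities; the sources used here name neither its version nor its options. Values ran from 7.61 to 36128, so they were read as linear and log2 was taken with no pseudocount. RMA can shrink differences near background.

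Of 22690 probe sets 64 controls were set aside, 20380 carried 1 gene symbol, 691 several and 1555 none. Gene identifiers found 20351 of the single symbols in a mouse RefSeq table (GRCm38.p6) and changed 0. The probe set with the highest mean stood for each of 12393 genes, 4956 of which had several. Groups were compared with limma 3.58.1 in R 4.3.3 (lmFit, eBayes, Benjamini-Hochberg over all genes), tested on simulated data. Members and lists were chosen with earlier results of these data known. Full values are given for members called with or without the block, the 6 with the largest difference between subpopulations and the 6 with the largest between numbers; from each further list, genes called and the 2 with the largest difference. Genes named from these lists for differences between numbers, for interactions or for block calls were chosen after their values were seen.

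The groups share replicate numbers. Each array's deviation from its group mean was correlated, across genes, with that of the array of the same number in the other group, at 0.574, 0.404, 0.533 and 0.531 for numbers 1 to 4. Every value was over 0.1, the cut-off for treating the numbers as pairs in the block. This pairing comes from the values and not from the labels. For other arrays of the same pair of numbers the correlation was 0.372 to 0.521, and for arrays of different pairs -0.564 to -0.382. Different numbers of the same pair thus pass 0.1 too. The value for number 2 (0.404) lay within their range, and the other numbers lay above it. The cut-off separates the pairs of numbers, but it cannot decide whether same-numbered arrays are pairs. Alternatives were other normalizations, filters, probe set choices, variance models, weights, the block and leaving out arrays.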

Additional observations from a re-analysis of the deposited data

Results flagged for a closer look

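By the interaction fit, the subpopulation difference varied between arrays numbered 1 and 3 and arrays numbered 2 and 4 for 5 members and 2 genes of the further hypoxia list (limma interaction, adjusted p under 0.05). The pairs of numbers came from the resemblance of these arrays, so these p-values are too small. The interactions were -1.65 for Ndrg1, -1.43 for Bnip3, -0.88 for Aldoc, -0.78 for P4ha1, -0.75 for Pdk1, -0.69 for Ak4 and -0.65 for Kdm3a. In 42 groups of 4 values examined, from the members and list genes named by the rule, no array lay far enough from the others to be singled out. Where arrays 1 and 3 lay apart from arrays 2 and 4, this check could hardly single out an array, so it says little there.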

How the results depend on the processing

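Without the block 0 members were higher and 0 lower in CD44hi, where 2.03% and 1.78% of all genes were. With the replicate block 3 were lower (Hk2, Fgf11 and Adm), against 3.11% of all genes. With array weights 5 were lower (Hk2, Fgf11, Ndrg1, Bnip3 and Aldoc), against 3.37%. On arrays 1 and 3 alone 7 were lower (3.63% of all genes), and on arrays 2 and 4 alone 1 was (2.15%). The weighted fit had no term for the numbers. Leaving out 1 array gave 0 to 1 lower (1.02% to 1.82% of all genes), and 0 were higher in every alternative run. The other settings, which were 2 other choices of probe set, quantile normalization, median centring, a filter on genes above the median level (23 members left), trend and robust variance, and an adjusted p under 0.01, gave 0 lower. Of 194 differences of 11 members under alternatives, 159 kept direction and side of the threshold, 17 passed it, and 18, none of them called, changed sign. The 14 members without overlap between the numbers (48.3%, against 25.4% of all genes) became 13 to 16 with other processing or without 1 array. They became 10 when a difference of at least 0.5 was also required. Shares of all genes are not given for these alternatives, so the counts do not compare the members with other genes. The 5 members with an interaction (1.52% of all genes) became 3 with the most variable probe set (1.16%), 10 with trend and robust variance (2.86%), and 1 to 6 without 1 array (0.0726% to 3.22%), an alternative chosen after seeing the data. Of 65 single interactions 43 kept the call, 22 lost it and 0 reversed. Fewer arrays raise the error of these fits. Adm passed in 1 of 17 alternatives, the block. Beyond Hk2, Fgf11 and Adm, the block changed no member's call.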
